A study of Arabidopsis thaliana with 11 samples.

Results

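The 9 genes described here encode calcium sensors and calcium-regulated protein kinases that act on ion channels of guard cells, which form the stomatal pore of the leaf surface and set its width. They were chosen by locus from the authors' deposited table of normalised values, in which all 9 of its 28718 loci were found. They are the calcineurin B-like sensors CBL1 (AT4G17615), CBL9 (AT5G47100), CBL2 (AT5G55990) and CBL3 (AT4G26570), the CBL-interacting kinase CIPK23 (AT1G30270), and the calcium-dependent kinases CPK3 (AT4G23650), CPK6 (AT2G17290), CPK21 (AT4G04720) and CPK23 (AT4G04740). In the scanner files 7 of the 9 had a probe with a name that leads to the locus, and these 7 were among the 23442 genes tested there. The probes of CBL3 and CPK23 could not be named, so their values come from the authors' deposited table.

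The samples were guard-cell-enriched material of Arabidopsis thaliana, accession Columbia-0, each on its own 1-colour Agilent array. Pots were soaked for 2 h on each treatment day. The 3x salt group (4 samples) went through 3 rounds, the first with 75 mM NaCl (days 1 and 2), the next with 150 mM (days 7 and 8) and the last with 200 mM (days 13 and 14). The 1x salt group (3 samples) received the last round alone, and the no-salt group (4 samples) received tap water. All plants were 4 to 5 weeks old at the start and had 12 h of light a day, with 22 °C in the light period and 16 °C at night. Harvest was on day 15, when the lights had been on for 4 h. Whether the samples of one group were separate plants or separate preparations is not in the labels, so a p-value here reflects the spread among these samples alone, and that spread may be technical.

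A calcium signal in a plant cell is read by proteins that bind calcium. A CBL protein has no enzyme activity of its own and recruits a CIPK kinase to a membrane, whereas a CPK carries its calcium-binding part and its kinase part in a single protein. In guard cells these kinases phosphorylate the anion channels SLAC1 and SLAH3 and potassium channels, and the phosphatases ABI1 and ABI2, held in check by the drought hormone abscisic acid (ABA), oppose them.

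All 9 guard cell markers were well above background on all 11 arrays, so the labelled cell type was present. Their mean log2 level was 0.50 to 0.88 in 3x salt, 1.09 to 1.54 in 1x salt and 0.79 to 1.29 in no salt. In 3x salt against no salt 1 marker rose and 5 fell by limma (adjusted p below 0.05), beside 27.9% and 23.6% of all genes. The mean level of 9 vascular markers was 0.34 to 0.89 in 3x salt, 1.25 to 2.02 in 1x salt and 0.26 to 0.58 in no salt. In 1x salt against no salt 8 of these 9 rose, beside 9.24% of all genes. Of the other markers, 4 for pavement cells and trichomes spanned -0.76 to -0.57 in 3x salt, -0.03 to 0.05 in 1x salt and -0.77 to -0.32 in no salt, and 3 mesophyll genes that guard cells also express spanned 5.58 to 5.76 in 3x salt, 6.79 to 7.58 in 1x salt and 6.58 to 7.05 in no salt. No marker list was at background in any group. In such bulk samples, fewer cells of a type and less RNA per cell cannot be told apart, and the part of these shifts in the differences of the 9 genes was not tested. Between 66.2% and 80.3% of spots were well above background on an array, the highest share being that of 1x salt array 3, which also had 442 outlier spots against 9 to 38 on the others.

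A level is the log2 processed signal of a gene's brightest probe minus the array's 75th percentile, and a difference is between group means of that level. All 7 genes with a named probe were well above background on all 11 arrays and none was saturated. In 3x salt against no salt 2 of the 7 rose (CIPK23 and CPK3) and 2 fell (CBL1 and CBL9), beside 27.9% of all genes tested that rose and 23.6% that fell by limma at an adjusted p below 0.05. In 1x salt against no salt 0 rose and 1 fell (CBL1), beside 9.24% and 7.7% of all genes. In 3x salt against 1x salt 1 rose (CPK3) and 1 fell (CBL9), beside 19.8% and 19% of all genes. Over 7 genes these counts are near the shares over all genes and are not a result about the 7. In the authors' deposited table, fitted the same way, 4 of the 9 genes were called in 3x salt against no salt (CBL1, CBL9, CBL3 and CPK3) beside 32.5% of loci, 1 in 1x salt against no salt (CBL1) beside 9.13%, and 1 in 3x against 1x salt (CPK3) beside 24.1%. The median difference over the 7 genes was -0.16, -0.10 and 0.08 in the order of these comparisons, against 0.04, 0.04 and 0.01 over all genes. Both salt groups are set against the same no-salt arrays.

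**Figure D1:**
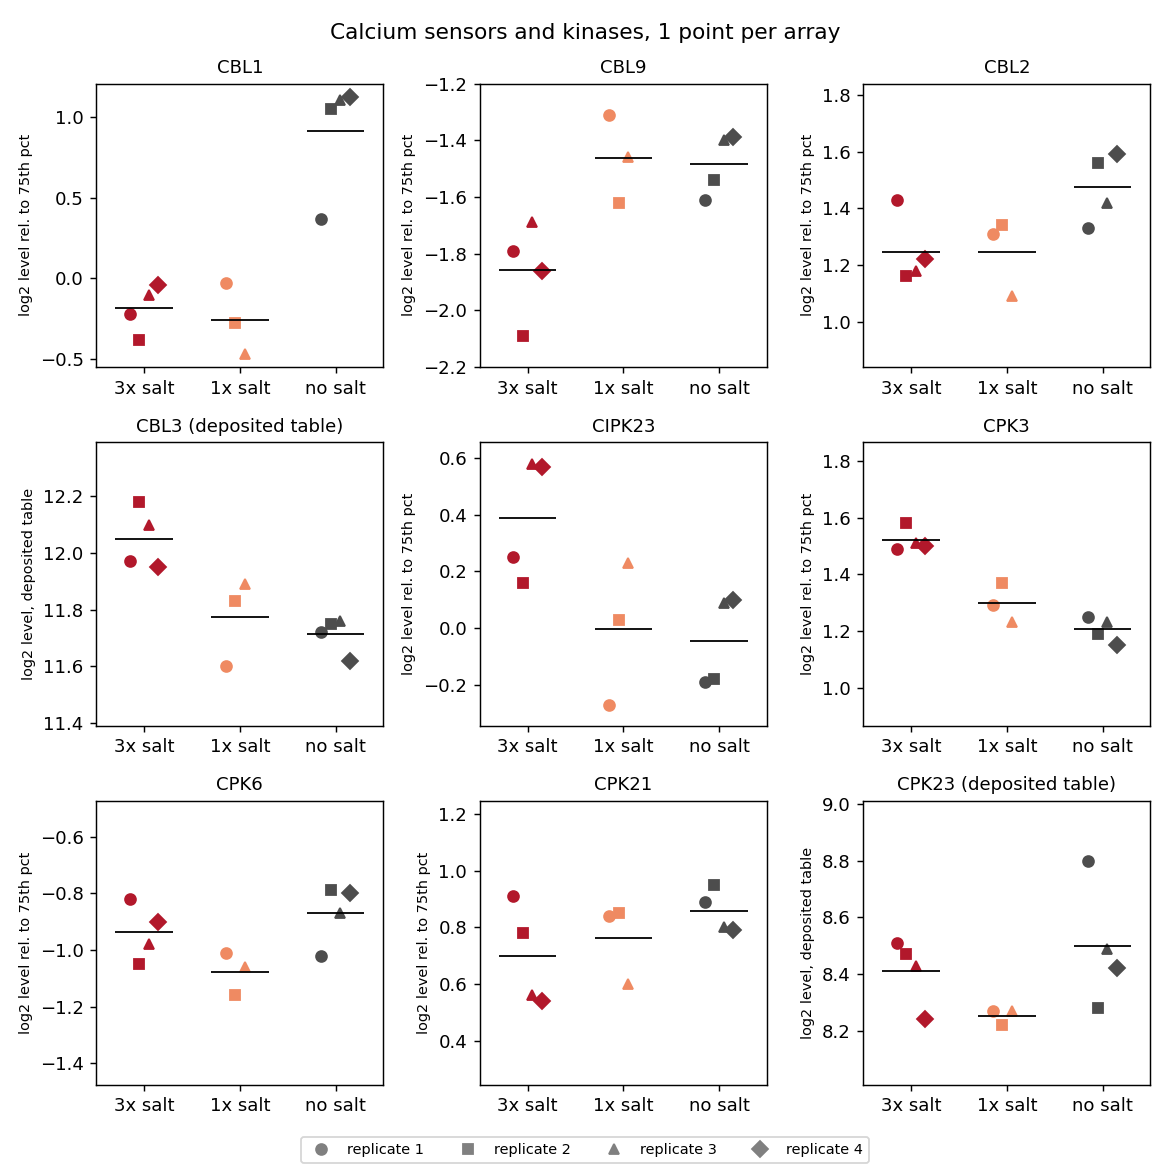
Log2 level of each of the 9 genes on each array, with 3x salt (red), 1x salt (orange) and no salt (grey) from left to right, symbols for replicate numbers and a line at each group mean. The y axes differ between panels, and CBL3 and CPK23 are on the scale of the authors' deposited table. CBL1 lies below 0 on the 7 salt arrays and between 0.37 and 1.13 on the 4 no-salt arrays, and CPK3 lies between 1.49 and 1.58 in 3x salt, above all other arrays.

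CBL1, a sensor at the plasma membrane that brings CIPK23 to the potassium channel AKT1, was lower after either salt regime, with a fold against no salt of 0.467 in 3x salt and 0.443 in 1x salt. Its level was -0.22, -0.38, -0.10 and -0.04 in the 4 samples of 3x salt, -0.03, -0.28 and -0.47 in the 3 of 1x salt, and 0.37, 1.05, 1.11 and 1.13 in the 4 of no salt. Every salt array lay below every no-salt array, and the lowest no-salt value, that of array 1, stood apart from the other no-salt arrays. CBL1 averaged -0.18 ± 0.15 in 3x salt (SD, n = 4) and 0.91 ± 0.37 in no salt (SD, n = 4), a difference of -1.10 (SE 0.18, 95% interval -1.49 to -0.71, limma adjusted p = 0.000637). It averaged -0.26 ± 0.22 in 1x salt (SD, n = 3), which is -1.18 from no salt (SE 0.19, 95% interval -1.60 to -0.75, limma adjusted p = 0.00343). The salt regimes did not differ past the threshold, with a 3x minus 1x difference of 0.08 (95% interval -0.35 to 0.50, limma adjusted p = 0.779).

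The fall of CBL1 differed in size between slides, each of which held only some of the arrays. Within slide 1 it was -0.58 for 3x salt and -0.39 for 1x salt against no salt, and this slide held no-salt array 1. On slide 6 the 3x salt difference was -1.17, and on slides 2 and 4 the 1x salt difference was -1.33 and -1.59. Without no-salt array 1 the differences over all arrays were -1.28 for 3x salt and -1.36 for 1x salt (limma adjusted p = 7.83e-05 and 0.000458). With slide as a fixed block the 1x salt difference was -1.12 and missed the threshold (limma adjusted p = 0.0714), in a fit with 3 residual degrees of freedom to which 3x salt arrays 2 and 3 add nothing because each lies alone on its slide. Over the 23 alternatives the adjusted p by limma spanned 7.83e-05 to 0.0948 for 3x salt and 0.000458 to 0.264 for 1x salt, the highest with close arrays averaged.

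CBL1 transcripts are known to rise on cold, drought and wounding. WRKY40, a defence regulator, and the cold regulators CBF1, CBF2 and CBF3, picked for this comparison after their values were seen, had a mean level of -0.58, -0.61, -0.22 and -0.24 in 3x salt, -0.24, -0.98 and -0.90 in 1x salt, and 1.39, 1.56, 1.55 and 1.64 in no salt. Their mean was thus also higher in all 4 no-salt samples than in any salt sample. Like CBL1, it was highest on array 1 among the 1x salt arrays and lowest on array 1 among the no-salt arrays. Single genes departed from this order. Among the no-salt arrays CBF3 was highest on array 1 (2.04), and CBF1 was lowest on array 2 (0.80) and not on array 1 (0.91). Among the 1x salt arrays CBF1 was highest on array 3 (-1.50). Their part in the CBL1 result was not tested.

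The genes whose level followed CBL1 most closely over the 11 arrays, among 19172 genes with a locus and a value on each, were NAC062, a membrane-bound transcription factor (Pearson r = 0.994), FC1, a ferrochelatase of haem synthesis (r = 0.993), and the zinc-finger protein ZF2, also called AZF2 (r = 0.988). The difference in 3x salt was -1.35 for NAC062, -0.95 for FC1 and -1.52 for ZF2, and in 1x salt it was -1.46, -0.96 and -1.71. The points share arrays and normalisation, and such an r holds the group means as well as the spread within groups.

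CBL9, the close relative of CBL1 that also works with CIPK23 at the plasma membrane, was lower in 3x salt but not measurably in 1x salt. Its level was -1.79, -2.09, -1.69 and -1.86 in 3x salt, -1.31, -1.62 and -1.46 in 1x salt, and -1.61, -1.54, -1.40 and -1.39 in no salt. All 4 of the 3x salt samples lay below the other 7, while 1x salt and no salt overlapped. CBL9 averaged -1.86 ± 0.17 in 3x salt and -1.49 ± 0.11 in no salt (SD, n = 4 each), a difference of -0.37 (SE 0.10, 95% interval -0.60 to -0.14, fold 0.772, limma adjusted p = 0.0126). The 1x salt difference from no salt was 0.02 (95% interval -0.22 to 0.27, limma adjusted p = 0.912). The 3x minus 1x salt difference was -0.40 (SE 0.11, limma adjusted p = 0.0185), a call that was lost in the authors' deposited table (-0.28, limma adjusted p = 0.127) and without 1x salt array 1 (-0.32, limma adjusted p = 0.0677). Within slides the 3x salt difference from no salt was -0.18 on slide 1 and -0.47 on slide 6, and with slide as a fixed block it was -0.38 and missed the threshold (limma adjusted p = 0.0769). The adjusted p by limma over all alternatives spanned 0.00924 to 0.178 for 3x salt against no salt and 0.0145 to 0.197 for 3x against 1x salt.

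The genes nearest to CBL9 in pattern were the prenylated RAB acceptor family gene PRA1.G2 (r = 0.948), the receptor kinase HERK2 (r = 0.948) and AT2G05160 (r = 0.943). Their 3x salt differences from no salt were -0.62, -0.26 and -1.68.

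CBL2 and CBL3 are sensors of the vacuolar membrane. CBL2 had levels of 1.43, 1.16, 1.18 and 1.22 in 3x salt, 1.31, 1.34 and 1.09 in 1x salt, and 1.33, 1.56, 1.42 and 1.59 in no salt. The salt samples lay mostly lower, but each salt group overlapped with no salt, 3x salt through its array 1 and 1x salt through its array 2. The differences from no salt were -0.23 in 3x salt (95% interval -0.44 to -0.02, limma adjusted p = 0.0682) and -0.23 in 1x salt (95% interval -0.45 to 0, limma adjusted p = 0.161), and neither passed the threshold. The first passed without no-salt array 1 (-0.27, limma adjusted p = 0.0439) or without 3x salt array 1 (-0.29, limma adjusted p = 0.031), and its adjusted p spanned 0.031 to 0.398 over all alternatives. On slide 1, which held both of these, the 3x salt difference was 0.10, against -0.37 on slide 6.

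CBL3 was measured in the authors' deposited table alone, on its log2 scale, which cannot be set against the levels above. It had values of 11.97, 12.18, 12.10 and 11.95 in 3x salt, 11.60, 11.83 and 11.89 in 1x salt, and 11.72, 11.75, 11.76 and 11.62 in no salt. The 4 samples of 3x salt were the highest of all 11, and 1x salt overlapped with no salt. The fit to the authors' deposited table gave a rise of 0.34 in 3x salt against no salt (SE 0.09, 95% interval 0.14 to 0.54, fold 1.27, limma adjusted p = 0.0142). With slide as a fixed block the rise in the authors' deposited table was 0.33 and missed the threshold (limma adjusted p = 0.0948, within 0.00651 to 0.221 over the alternatives). The 3x minus 1x salt difference in the authors' deposited table was 0.28 and missed the threshold (95% interval 0.06 to 0.50, limma adjusted p = 0.0617), although these groups did not overlap. The 1x salt difference from no salt in the authors' deposited table was 0.06 (95% interval -0.16 to 0.28, limma adjusted p = 0.781). In the same deposited table CBL2 differed by -0.18 in 3x salt (95% interval -0.43 to 0.08, limma adjusted p = 0.293), so the estimates of these paired vacuolar sensors had opposite signs in 3x salt, with the CBL2 estimate short of the threshold. CBL3 lies beside CBL7 on the chromosome. How the authors' table separates related loci is not given in the sources used here.

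**Figure D2:**
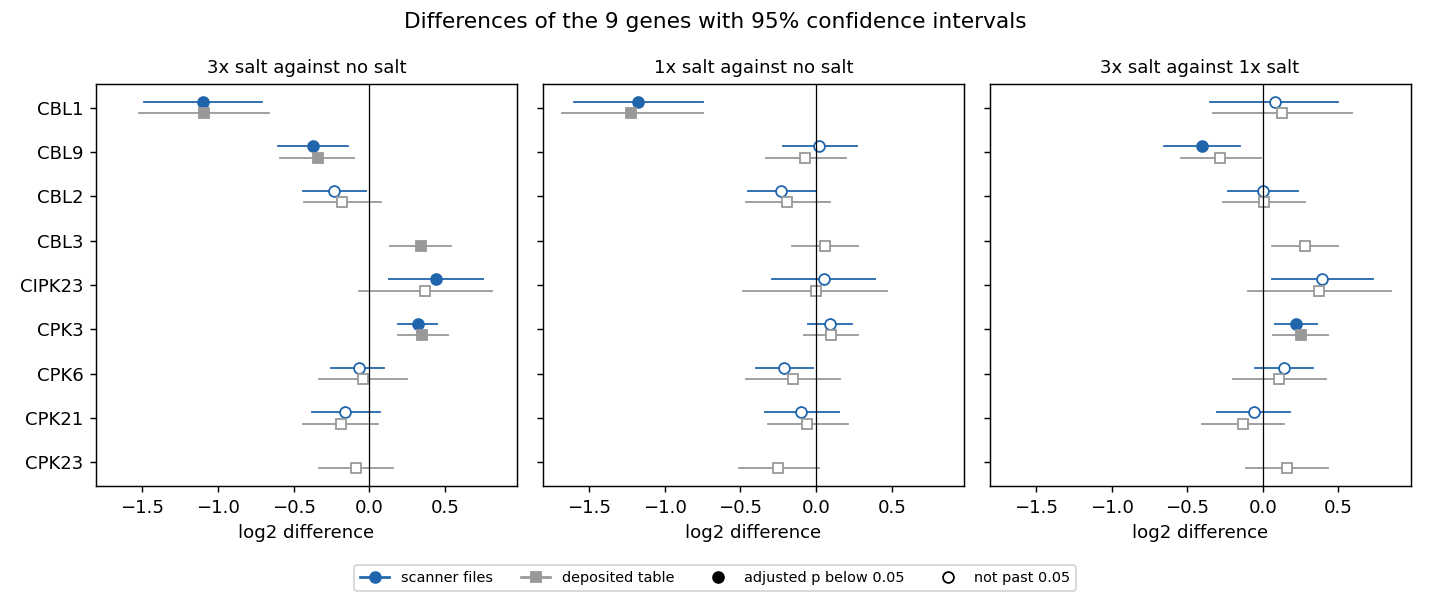
Log2 difference of each gene with its 95% interval in 3x salt against no salt, 1x salt against no salt and 3x salt against 1x salt, from the scanner files (blue circles) and the authors' deposited table (grey squares), filled where the limma adjusted p was below 0.05. CBL1 stands at -1.10 and -1.18 against no salt in the scanner files, and the differences of the other 8 genes lie between -0.40 and 0.44.

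CIPK23, the kinase that CBL1 and CBL9 recruit and that phosphorylates AKT1, the nitrate transporter NRT1.1 and ammonium transporters, was higher in 3x salt. Its level was 0.25, 0.16, 0.58 and 0.57 in 3x salt, -0.27, 0.03 and 0.23 in 1x salt, and -0.19, -0.18, 0.09 and 0.10 in no salt. The 4 samples of 3x salt lay above the 4 of no salt, with 3x salt array 2 at 0.16 close to no-salt array 4 at 0.10, and 1x salt overlapped with both. CIPK23 averaged 0.39 ± 0.22 in 3x salt and -0.05 ± 0.16 in no salt (SD, n = 4 each), a rise of 0.44 (SE 0.14, 95% interval 0.13 to 0.75, fold 1.36, limma adjusted p = 0.0241). The difference was 0.44 within slide 1 and 0.48 within slide 6. The call was lost in the authors' deposited table (0.37, limma adjusted p = 0.193), with normexp background correction (0.32, limma adjusted p = 0.231), and when any of no-salt arrays 1 and 2 and 3x salt arrays 3 and 4 was left out (0.38 to 0.40, limma adjusted p from 0.0619 to 0.0664). Over the 23 alternatives its adjusted p spanned 0.00305 to 0.231.

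In 1x salt CIPK23 differed from no salt by 0.05 (95% interval -0.29 to 0.39, limma adjusted p = 0.871). 3x salt exceeded 1x salt by 0.39 (95% interval 0.06 to 0.73), which missed the threshold (limma adjusted p = 0.0644) and passed it without 1x salt array 3 (0.51, limma adjusted p = 0.0348) or 3x salt array 2 (0.47, limma adjusted p = 0.0429), within 0.0198 to 0.328 over all alternatives. CIPK23 thus had a higher estimate in 3x salt while the levels of both its plasma membrane sensors were lower there. Its nearest patterns were those of RACK1B, a scaffold protein of the ribosome (r = 0.977), the protein arginine methyltransferase PRMT3 (r = 0.975) and the methionine aminopeptidase MAP1A (r = 0.969), which differed in 3x salt by 0.61, 0.57 and 0.58.

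CPK3, a calcium-dependent kinase that takes part in the opening of guard cell anion channels by ABA, had the smallest SD of the 7 genes within each group. Its level was 1.49, 1.58, 1.51 and 1.50 in 3x salt, 1.29, 1.37 and 1.23 in 1x salt, and 1.25, 1.19, 1.23 and 1.15 in no salt. 3x salt lay above both other groups without overlap, and 2 of the 3 arrays of 1x salt lay above all no-salt arrays. CPK3 averaged 1.52 ± 0.04 in 3x salt and 1.20 ± 0.05 in no salt (SD, n = 4 each), a rise of 0.32 (SE 0.06, 95% interval 0.19 to 0.45, fold 1.25, limma adjusted p = 0.00138). It was 0.24 within slide 1 and 0.36 within slide 6, and with slide as a fixed block it was 0.30 and missed the threshold (limma adjusted p = 0.0613, within 0.000702 to 0.124 over the alternatives). 3x salt exceeded 1x salt by 0.22 (SE 0.06, 95% interval 0.08 to 0.36, limma adjusted p = 0.0187), a call lost without 1x salt array 3 (0.19, limma adjusted p = 0.0606, within 0.00818 to 0.233 over the alternatives). The 1x salt difference from no salt was 0.09 (95% interval -0.05 to 0.24, limma adjusted p = 0.341).

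CPK6, which acts beside CPK3 and phosphorylates SLAC1, had levels of -0.82, -1.05, -0.98 and -0.90 in 3x salt, -1.01, -1.16 and -1.06 in 1x salt, and -1.02, -0.79, -0.87 and -0.80 in no salt. The groups overlapped in every comparison. The difference from no salt was -0.07 in 3x salt (95% interval -0.25 to 0.10, limma adjusted p = 0.478) and -0.21 in 1x salt (95% interval -0.40 to -0.02, limma adjusted p = 0.12), and 3x minus 1x salt was 0.14 (limma adjusted p = 0.222). CPK6 has another, dimmer probe, also well above background on all arrays, and the probes disagreed in size: this one gave -0.45 in 3x salt (limma adjusted p = 0.0295 over all probes) and -0.38 in 1x salt (limma adjusted p = 0.159). With the mean of both probes CPK6 passed the threshold in 3x salt (-0.26, limma adjusted p = 0.0211) and in 1x salt (-0.29, limma adjusted p = 0.0434), so its call depends on the probe. Over 24 alternatives the adjusted p by limma reached up to 0.96 in 3x salt and 0.695 in 1x salt.

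CPK21 and CPK23 both activate SLAC1 and SLAH3 when tested in frog oocytes, and their loci are separated by a single gene, AT4G04730. CPK21 had levels of 0.91, 0.78, 0.56 and 0.54 in 3x salt, 0.84, 0.85 and 0.60 in 1x salt, and 0.89, 0.95, 0.80 and 0.79 in no salt. Arrays 3 and 4 of 3x salt and array 3 of 1x salt were the lowest, and the groups overlapped. The difference from no salt was -0.16 in 3x salt (95% interval -0.38 to 0.07, limma adjusted p = 0.215) and -0.10 in 1x salt (95% interval -0.34 to 0.15, limma adjusted p = 0.597), and 3x minus 1x salt was -0.06 (limma adjusted p = 0.688).

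CPK23 in the authors' deposited table had log2 values of 8.51, 8.47, 8.43 and 8.24 in 3x salt, 8.27, 8.22 and 8.27 in 1x salt, and 8.80, 8.28, 8.49 and 8.42 in no salt. The 1x salt values lay just below the lowest no-salt value, and 3x salt overlapped with both. In that deposited table, the authors' values gave a difference from no salt of -0.09 in 3x salt (95% interval -0.33 to 0.16, limma adjusted p = 0.643) and -0.25 in 1x salt (95% interval -0.51 to 0.02, limma adjusted p = 0.27). The 3x minus 1x salt difference in the authors' deposited table was 0.16 (limma adjusted p = 0.394). CPK23 stood near the median of the deposited columns, which was 8.29 to 8.34, and how dim loci were treated there is not given in the sources used here.

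**Figure D3:**
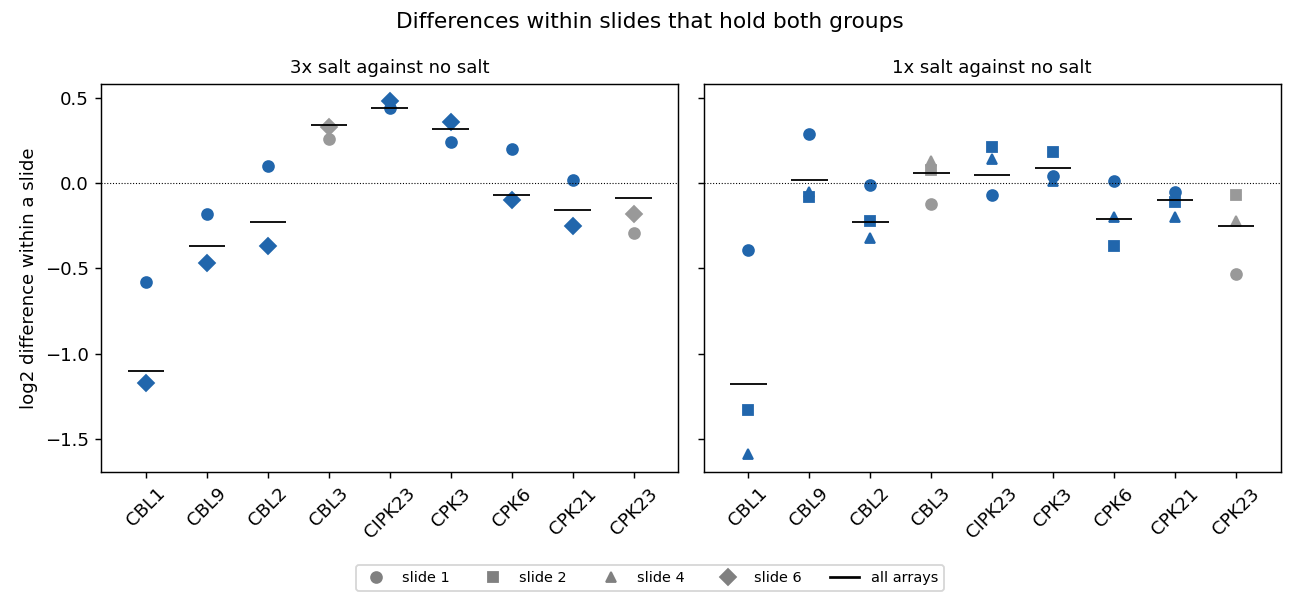
Log2 difference of each gene within each slide that holds both groups (symbols, blue for scanner files and grey for the authors' deposited table) and over all arrays (lines), for 3x salt and 1x salt against no salt. CBL1 lies below 0 on every slide, with -0.58 and -0.39 on slide 1 and -1.17 to -1.59 on slides 2, 4 and 6. CIPK23 and CPK3 lie above 0 on both slides in 3x salt.

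The relatives of these genes were examined in the same fit. Of the 6 other CBLs, 5 were tested, and 2 rose and 1 fell in 3x salt against no salt (beside 27.9% and 23.6% of all genes), 0 rose and 2 fell in 1x salt by limma (beside 9.24% and 7.7%), and 2 rose and 1 fell in 3x against 1x salt (beside 19.8% and 19%). Their median difference was -0.21, -0.37 and 0.03 in these comparisons. Only 1 rise in 3x salt was left when any 1 of 4 arrays was dropped, namely numbers 1 and 4 of the no-salt group and 3 and 4 of the 3x salt group. The falls in 1x salt came to 1 when number 2, 3 or 4 of the no-salt group, or number 2 of the 1x salt group, was dropped. They came to 0 by limma without 1x salt array 3, and 1 gene rose there without 1x salt array 1. CBL10, which works with CIPK24 in shoot salt tolerance, averaged -1.82 ± 0.13 in 3x salt, -0.73 ± 0.06 in 1x salt and -0.36 ± 0.07 in no salt (SD, n = 4, 3 and 4), and fell by 1.45 in 3x salt (limma adjusted p = 2.72e-06) and by 0.37 in 1x salt (limma adjusted p = 0.0156). CBL4, also called SOS3, the sensor of the sodium export pathway, rose by 1.30 in 3x salt (limma adjusted p = 9.58e-05) and differed by 0.35 in 1x salt (limma adjusted p = 0.16). CBL5 rose by 0.69 in 3x salt (limma adjusted p = 0.0249) and fell by 0.89 in 1x salt (limma adjusted p = 0.0299).

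Of the 25 other CIPKs, 24 were tested, and 10 rose and 6 fell in 3x salt (beside 27.9% and 23.6% of all genes), 3 rose and 7 fell in 1x salt (beside 9.24% and 7.7%), and 8 rose and 3 fell in 3x against 1x salt (beside 19.8% and 19%). CIPK16, counted among the rises in both salt groups, was well above background on only 1 of 4 no-salt arrays and so entered the fit through the salt arrays. CIPK22, counted among the rises in 3x salt, was well above background on 2 of 4 no-salt arrays. The rises in 1x salt came to 6 without 1x salt array 1 and to 1 without 1x salt array 3. The median difference of these CIPKs was 0.10, 0 and 0.17 in these comparisons. CIPK17 fell by 3.26 in 3x salt (limma adjusted p = 6.04e-06, well above background on 3 of 4 arrays there) and by 1.46 in 1x salt (limma adjusted p = 0.00288). CIPK4 rose by 1.1 in 3x salt (limma adjusted p = 4.8e-05) and by 0.89 in 1x salt (limma adjusted p = 0.00143), and CIPK10 rose by 0.69 in 3x salt (limma adjusted p = 0.00014) and differed by 0.18 in 1x salt (limma adjusted p = 0.206). CIPK9, a kinase of potassium balance, fell by 0.48 in 3x salt (limma adjusted p = 0.00125) and by 0.83 in 1x salt (limma adjusted p = 0.00062). CIPK25 rose by 0.84 in 3x salt (limma adjusted p = 0.00062) and fell by 0.92 in 1x salt (limma adjusted p = 0.00309), and its 3x minus 1x salt difference was 1.76 (limma adjusted p = 5.82e-05).

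Of the 30 other CPKs, 20 were tested, and 3 rose and 7 fell in 3x salt (beside 27.9% and 23.6% of all genes), 2 rose and 5 fell in 1x salt (beside 9.24% and 7.7%), and 1 rose and 1 fell in 3x against 1x salt (beside 19.8% and 19%). Their median difference was -0.07, -0.14 and -0.01. The counts for 1x salt came to 1 rise and 3 falls without 1x salt array 2 and to 2 falls without 1x salt array 3. In 3x against 1x salt 2 rose without 1x salt array 1, and 2 fell when array 2 of either salt group was dropped. CPK30 rose by 0.83 in 3x salt (limma adjusted p = 1.53e-05) and by 0.65 in 1x salt (limma adjusted p = 0.000527). CPK28, which limits immune signalling, fell by 1.47 in 3x salt (limma adjusted p = 0.000565) and by 1.26 in 1x salt (limma adjusted p = 0.00836). CPK15 fell by 0.75 in 3x salt (limma adjusted p = 0.000951) and by 0.96 in 1x salt (limma adjusted p = 0.00202). CPK12 fell by 0.84 in 3x salt (limma adjusted p = 0.000348) and differed by -0.28 in 1x salt (limma adjusted p = 0.182). CPK7 rose by 0.39 in 3x salt (limma adjusted p = 0.00332) and differed by -0.15 in 1x salt (limma adjusted p = 0.283), and its 3x minus 1x salt difference was 0.54 (limma adjusted p = 0.00138).

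**Figure D4:**
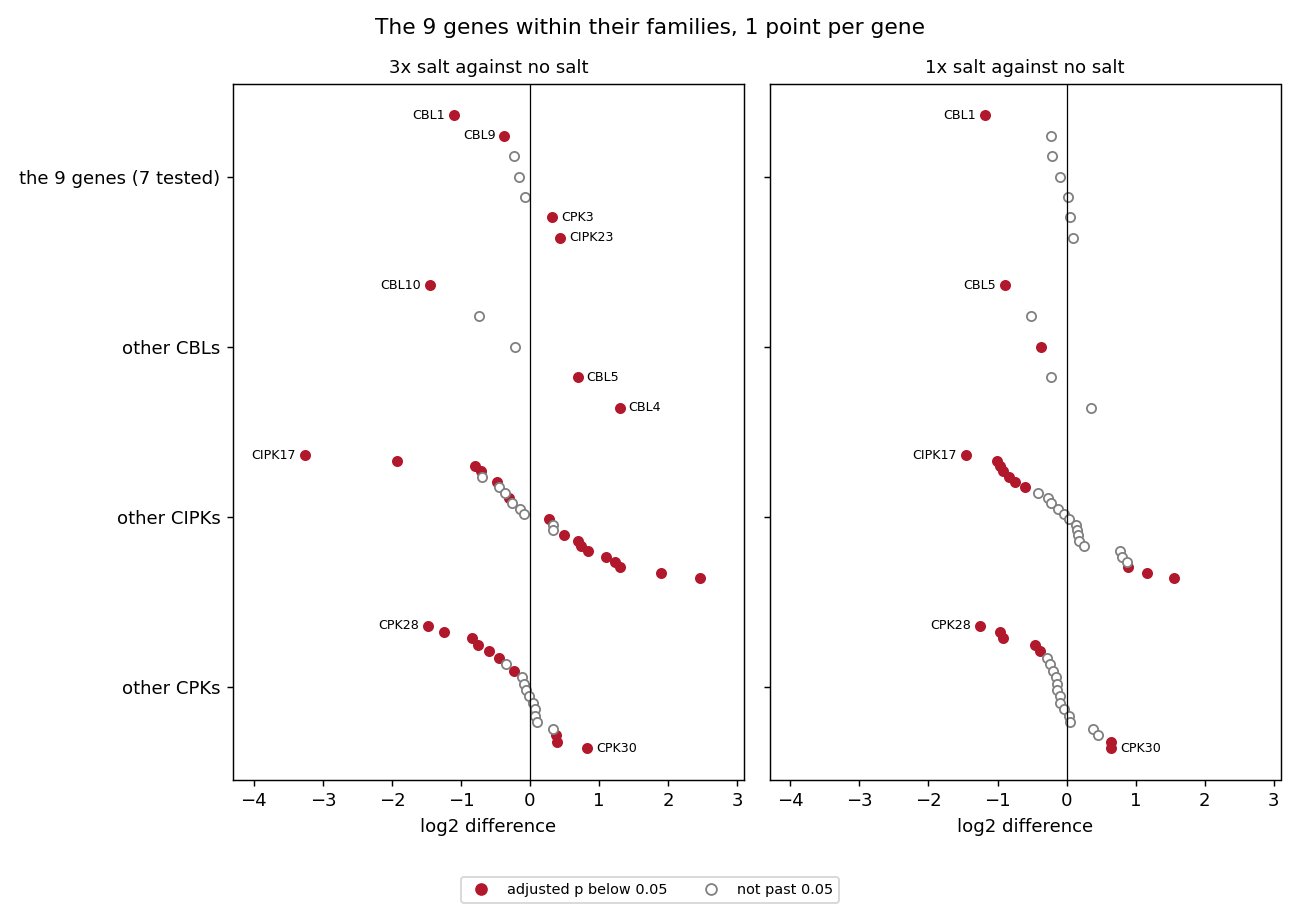
Log2 difference of every tested CBL, CIPK and CPK gene in 3x salt and in 1x salt against no salt, with the 7 genes with a named probe in the top row and filled points where the limma adjusted p was below 0.05. Some named genes are labelled. CBL1 at -1.10 and CBL10 at -1.45 are the lowest CBL genes in 3x salt, and CIPK17 at -3.26 lies farthest from 0 of all points.

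Of 18 channels and transporters, including many that these kinases act on, 17 were tested, and 7 rose and 8 fell in 3x salt (beside 27.9% and 23.6% of all genes), 5 rose and 3 fell in 1x salt (beside 9.24% and 7.7%), and 5 rose and 7 fell in 3x against 1x salt (beside 19.8% and 19%). Their median difference was -0.19, 0.13 and -0.19. The rises in 1x salt came to 3 when any single no-salt array was dropped, and likewise number 2 or 3 of the 1x salt group. The rises in 3x against 1x salt came to 3 when number 2, 3 or 4 of the no-salt group, number 1 of the 1x salt group, or number 3 or 4 of the 3x salt group was dropped. The anion channel SLAC1, a target of CPK6, CPK21, CPK23 and CIPK23, differed by -0.19 in 3x salt (limma adjusted p = 0.327) and 0.19 in 1x salt (limma adjusted p = 0.478). SLAH3, a nitrate-permeable anion channel, averaged 2.89 ± 1.16 in 3x salt, 2.78 ± 0.36 in 1x salt and 0.13 ± 0.17 in no salt (SD, n = 4, 3 and 4), and rose by 2.76 (limma adjusted p = 0.000931) and 2.65 (limma adjusted p = 0.0076). SLAH2, which is counted among the rises, averaged -1.94 ± 0.39 in 3x salt and -4.05 ± 0.43 in 1x salt (SD, n = 4 and 3), a 3x minus 1x salt difference of 2.11 (limma adjusted p = 0.000335). It was well above background on only 1 of 4 no-salt arrays and so entered the fit through the salt arrays, and no size is given for its difference from no salt. AKT1, the inward potassium channel that CIPK23 phosphorylates, rose by 0.28 in 3x salt (limma adjusted p = 0.0408, groups overlapping, and 0.0956 in the authors' deposited table) and differed by -0.20 in 1x salt (limma adjusted p = 0.242).

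The inward potassium channel KAT1 fell by 0.94 in 3x salt (limma adjusted p = 0.00016) and differed by 0.18 in 1x salt (limma adjusted p = 0.368), while the outward channel GORK rose by 1.40 in 3x salt (limma adjusted p = 0.000167) and 0.68 in 1x salt (limma adjusted p = 0.0367). Both are also among the guard cell markers. Of the transporters that CIPK23 phosphorylates, NRT1.1 fell by 1.11 (limma adjusted p = 1.37e-05) and the ammonium transporter AMT1;2 fell by 2.45 (limma adjusted p = 1.9e-05) in 3x salt, and AMT1;2 fell by 1.68 in 1x salt (limma adjusted p = 0.00125). AMT1;1, another ammonium transporter, moved the other way and rose by 0.29 in 3x salt (limma adjusted p = 0.0355), with -0.04 in 1x salt (limma adjusted p = 0.849). Of the NADPH oxidases, RBOHF rose by 0.67 in 3x salt (limma adjusted p = 0.00021) and by 0.65 in 1x salt (limma adjusted p = 0.00208), and RBOHD differed by -1.29 in 3x salt (limma adjusted p = 0.00043) and -1.10 in 1x salt (limma adjusted p = 0.00726). AMT1;1 and RBOHD were named after their values were seen.

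Of 6 phosphatases and kinases that act beside them, 5 were tested, and 2 rose and 0 fell in 3x salt by limma (beside 27.9% and 23.6% of all genes), 0 rose and 0 fell in 1x salt by limma (beside 9.24% and 7.7%), and 2 rose and 1 fell in 3x against 1x salt (beside 19.8% and 19%). Their median difference was 0.04, 0.07 and -0.02. The phosphatases ABI2 and HAB1 rose by 0.81 and 0.82 in 3x salt (limma adjusted p = 0.000781 and 0.000946), and ABI1 differed by -0.22 (limma adjusted p = 0.177). The ABA-activated kinase OST1 differed by -0.14 in 3x salt (limma adjusted p = 0.574) and by 0.48 in 1x salt (unadjusted p = 0.0462 and adjusted p = 0.151 by limma), and its 3x minus 1x salt difference was -0.62 (limma adjusted p = 0.0407, groups overlapping, and 0.101 in the authors' deposited table). OST1 was the 1 fall of the list, and this count of falls came to 0 in 15 of 23 alternatives. Of these, 7 dropped a single array (numbers 2, 3 and 4 of the no-salt group, 1 and 3 of the 1x salt group, and 3 and 4 of the 3x salt group). In the authors' deposited table the count stayed at 1 through a gene other than OST1, so the OST1 call was lost there too.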

How the data were processed

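Per the file headers, Feature Extraction 11.5.1.1 wrote the scanner files, which give each spot a background-subtracted processed signal in intensity units. The authors' deposited table lists log2 values for 28718 loci, a scale judged from its comparison with the scanner files. For its background correction, normalisation and centring no source used here gives a method.

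Levels are log2 processed signals minus the 75th percentile of the array's non-control spots. Spots called outliers were dropped and repeat spots averaged. Locus or RefSeq names tied 34348 of 43603 probes to 25410 loci through a TAIR10.1 gene table. The file headers name build TAIR10, so no coordinates are given. Promoter and protein sequences were not analysed here. The brightest probe stood for a gene. A gene was tested where 3 or more of the 11 arrays had it well above background (23442 of 34290). limma 3.58.1 in R 4.3.3 fitted 1 model over the 3 groups (lmFit, eBayes and 8 residual degrees of freedom), using Benjamini-Hochberg adjustment over all genes within a comparison and a threshold of 0.05. The fit was tested on simulated data with independent noise on each array. That test does not cover arrays that share a slide or lie close together. The number of arrays limits the precision.

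Values of CBL3 and CPK23 come from the same fit on the deposited table, a choice made after it was seen that no probe name leads to them. The 9 genes and the gene lists were chosen with earlier results of these data known. Other genes named are, per list and comparison, the lowest adjusted p-values (3 genes where at least 3 were called, otherwise 2), always SLAC1, SLAH3, AKT1, KAT1, GORK, OST1, ABI1 and CBL10, and the 3 genes most like CBL1, CIPK23 and CBL9 over the 11 arrays. Alternatives covered background correction, scaling, filter, probe choice, the deposited table, slide and replicate blocks, close arrays averaged, and leaving out each array. Per the labels' protocols 4 samples were prepared per treatment, but 1x salt has 3 here, as the series' design text also says. Plots used python 3.11.15 with pandas 2.3.3 and matplotlib 3.10.9.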

Additional observations from a re-analysis of the deposited data

Results flagged for a closer look

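In 18 groups of 4 samples, the highest or lowest array stood apart from the other 3 in 2, and chance gives about 1 in 20. The CBL1 level on no-salt array 1 was 0.37, against 1.05 to 1.13 on the other no-salt arrays, a gap of 0.902 of the group's range where 0.829 is the limit. The CPK3 level on 3x salt array 2 was 1.58, against 1.49 to 1.51 on the other 3x salt arrays, a gap of 0.831 of a narrow range.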

How the results depend on the processing

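No called difference of the 9 genes changed direction under any alternative. In 3x salt against no salt, of the genes called, 2 rose as reported, and 1 did with normexp background correction, 1 with slide as a fixed block, 0 with close arrays averaged, and 1 to 2 with each array left out in turn. Against 2 that fell, 1 fell with the fixed block and 0 with close arrays averaged. The falls came to 3 with the mean of all probes, through CPK6, and to 2 to 3 with each array left out, through CBL2. In 1x salt against no salt, against 1 that fell, 2 fell with the mean of all probes and 0 with the fixed block or close arrays averaged. In 3x against 1x salt, against 1 that rose, 2 did with median scaling and with slide as a random block, 0 did with normexp, no filter on dim genes, the fixed block, close arrays averaged or only the compared groups in the fit, and 1 to 2 did with each array left out. Against 1 that fell there, 0 fell with normexp, median scaling, the deposited table, the fixed block, close arrays averaged or only the compared groups in the fit, and 0 to 1 with each array left out. Averaging close arrays joins no-salt arrays 2, 3 and 4, 1x salt arrays 2 and 3, and in 3x salt array 1 with 2 and array 3 with 4. Over genes, the SD of the log2 difference was 0.333 and 0.33 within these 3x salt pairs and 0.513 to 0.56 across them. This averaging leaves 2 samples a group and 3 residual degrees of freedom. For other lost calls the cause was not tested.

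Whether the replicate numbers pair the samples is not settled here. Deviations of same-numbered arrays correlated at -0.12 to 0.30, all above 0 except those of array 2 in the 2 salt groups. Those of differently numbered arrays correlated at -0.29 to 0.27, and 1x salt array 2 correlated best with 3x salt array 4. Some same-numbered arrays also share a slide. With a replicate block, 2 genes rose in 3x against 1x salt instead of 1, CIPK23 (0.34, limma adjusted p = 0.0198) joining CPK3, and CBL3 in the authors' deposited table passed too (0.31, limma adjusted p = 0.0267). No other call of the 9 genes changed with it.

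With normexp the median of all genes moved to -0.16 in 3x salt against no salt, against 0.04 as reported. The normexp differences of CBL1, CBL9, CIPK23 and CPK3 include that shift, which was not subtracted, and their reported differences do not include it. Counts over all genes depended most on normexp, the fixed block and close arrays averaged. Against 6538 that rose and 5529 that fell in 3x salt against no salt, normexp gave 2986 and 3639, the fixed block 4211 rises, and close arrays averaged 1116 rises and 2221 calls in either direction, against 12067 as reported. Against 2165 and 1804 in 1x salt against no salt, normexp gave 489 and 596, the fixed block 598 and 446, close arrays averaged 2 and 0, the authors' deposited values 1215 rises, no filter 1196 falls, leaving out no-salt array 2 1185 falls, no-salt array 3 1370 and 1154, 1x salt array 2 1104 falls and 1x salt array 3 1208 and 1073. Against 4650 and 4451 in 3x against 1x salt, normexp gave 1535 and 1995, the fixed block 1186 and 1610, close arrays averaged 132 and 380, and the authors' deposited values 2921 falls.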
